A study of Mus musculus with 4 samples.

Results

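The enzymes and helpers that process collagen and link its fibrils were examined in mouse molar teeth. The group was defined by name as 10 genes, and its members were every probe set whose annotated gene symbol is exactly 1 of P4ha1, P4ha2, Plod1, Plod2, Serpinh1, Bmp1, Pcolce, Lox, Loxl1 and Loxl2. This gave 19 of 45101 probe sets, covering 9 of the 10 genes. Loxl2 had 0 probe sets of its own, because both probe sets that carry its symbol also name a second gene, Gm21451. The RNA came from molars of 60 Swiss-Webster pups of both sexes, aged from day 1 to day 10 after birth, whose teeth were combined into a single pool. Biotin-labelled material from that pool was put on 4 arrays of the type Affymetrix Mouse Genome 430 2.0, on which a set of short probes reports each transcript. The labels name no treatment and no engineered allele. The 4 arrays form 1 group with no other condition beside it, so every SD below is the technical spread of 1 pool, and the ages cannot be told apart.

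Collagen is one of the most heavily modified proteins a cell makes. In the endoplasmic reticulum, prolyl and lysyl residues of the procollagen chains are hydroxylated, and a dedicated chaperone holds the folding triple helix until it leaves the compartment. Outside the cell the end propeptides are cut off so that fibrils can form, and lysyl oxidases then convert lysyl and hydroxylysyl residues into the aldehydes from which covalent crosslinks arise. Odontoblasts lay down a matrix made mainly of type I collagen before it mineralises as dentin. Cells of alveolar bone and cementum make a mineralising type I collagen matrix too, and those of the periodontal ligament make one that stays soft, whereas the enamel matrix of ameloblasts is not collagenous.

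All 9 measured genes had a probe set above background, and 15 of the 19 probe sets were above it. Each array had its own background threshold, the 95th percentile over 87 probe sets for olfactory, vomeronasal, taste and trace amine receptor genes, and the 4 thresholds ran from 1037 to 1301 signal units. A probe set counted as above background when it exceeded the threshold on all 4 arrays, which 35.6% of all 45037 non-control probe sets and 42.3% of those naming 1 gene did. By the same rule 51.5% of 18193 genes had such a probe set. The signals that passed lay 2.02-fold to 71.8-fold over the threshold as means over the arrays. Limma's one-sided test of log2(signal / threshold), with Benjamini-Hochberg adjustment over all 45037 non-control probe sets, also called 15 of the 19 probe sets and all 9 genes, and it called 35.1% of all probe sets and 50.8% of all genes. The median of log2(signal / threshold) was 2.66 for the 19 probe sets and -0.65 for all probe sets. Signal also depends on how well a probe binds, so the level of a gene is not set against that of another, and in a pool of whole teeth fewer expressing cells and less RNA per cell cannot be told apart.

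**Figure D1:**
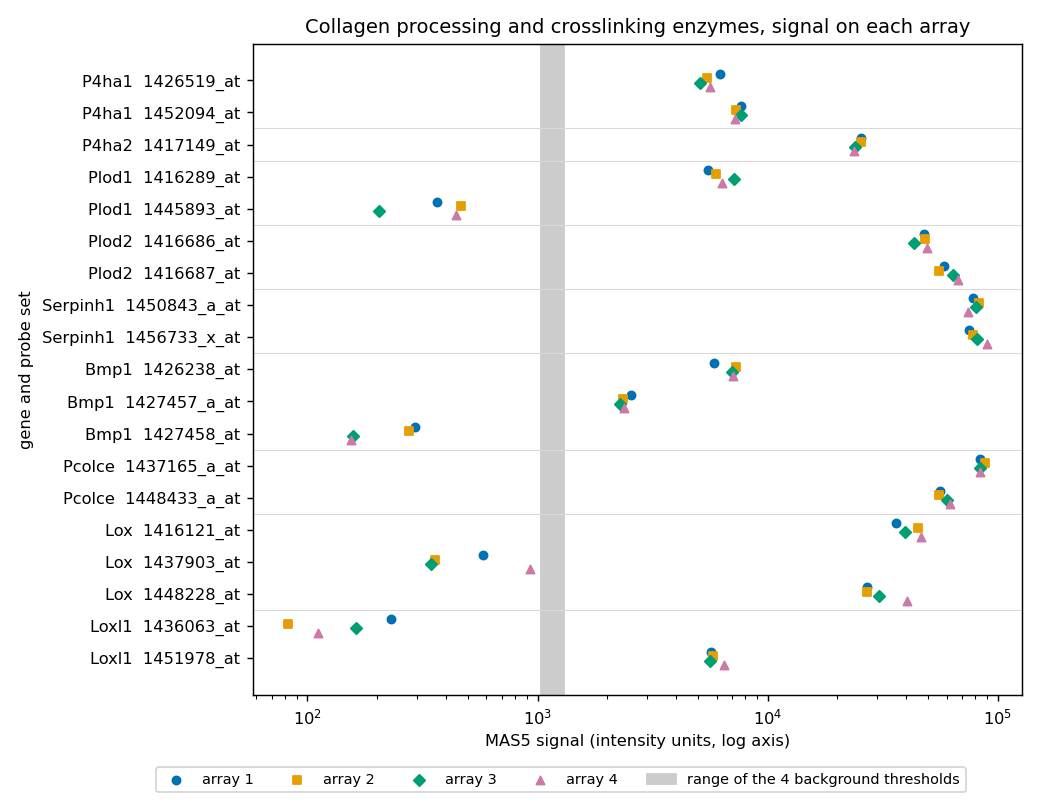
Each row is 1 of the 19 probe sets, the horizontal log axis is the MAS5 signal in intensity units, each point is 1 of the 4 arrays, and the grey band spans the 4 array thresholds (1037 to 1301). The 15 probe sets above background lie to the right of the band on every array and 4 probe sets, 1 each of Plod1, Bmp1, Lox and Loxl1, lie to its left on every array.

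P4ha1 and P4ha2 encode alternative catalytic subunits of prolyl 4-hydroxylase, which makes the 4-hydroxyproline that keeps the collagen helix stable at body temperature. P4ha2, read by 1 probe set, had signals of 25528, 25417, 24029 and 23822 on arrays 1 to 4. The 4 values differed by no more than 1.07-fold and lay 18.5-fold to 24.6-fold over the threshold of their array, with a mean of 24699 ± 898 (SD, n = 4 arrays) and an adjusted p of 1.53e-13 in limma. P4ha1 was read by 2 probe sets, and both passed on every array. The brighter gave 7683, 7312, 7699 and 7224, and the dimmer gave 6191, 5462, 5069 and 5607. The brighter P4ha1 probe set varied by 1.07-fold and the dimmer by 1.22-fold, array 1 being highest on the dimmer one. Their means were 7480 ± 247 and 5582 ± 465 (SD, n = 4 arrays), 6.32 and 4.71 times the threshold.

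Plod1 and Plod2 encode lysyl hydroxylases, which supply the hydroxylysine used for glycosylation and for stable crosslinks. Lysyl hydroxylase 1 acts mainly on the helical part of the chain, and lysyl hydroxylase 2 on the short end regions, the telopeptides, where the lysyl oxidases act. Plod2 had 2 probe sets, both far over background on every array. The first gave 47647, 48479, 43272 and 49236, and the second 58636, 55678, 63694 and 67186. The array order differed between the 2 probe sets, since array 3 was lowest on the first and second highest on the second. Their means were 47159 ± 2671 and 61298 ± 5134 (SD, n = 4 arrays), 39.8 and 51.7 times the threshold, with adjusted p-values of 5.52e-14 and 3.47e-14 in limma.

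Plod1 gave a mixed reading. Its first probe set had signals of 5502, 5981, 7155 and 6354, a mean of 6248 ± 698 (SD, n = 4 arrays) that was 5.26 times the threshold. Array 3 was highest there and all 4 arrays passed. Its second probe set had 366, 466, 205 and 441, and passed on 0 arrays. The Plod1 call therefore rests on 1 of 2 probe sets.

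Serpinh1 encodes Hsp47, a chaperone of the endoplasmic reticulum that binds the folded procollagen helix. Its 2 probe sets carry suffixes that mark sequence shared between transcripts, and both passed on every array. The suffix of the first marks transcripts of the same gene, whereas that of the second, _x_at, is not limited to a single gene. The first gave 77990, 82882, 80893 and 74126, and the second 75418, 78499, 81127 and 90386. Array 4 was lowest on the first and highest on the second, so the arrays showed no common order for this gene. The means were 78972 ± 3805 and 81358 ± 6456 (SD, n = 4 arrays), 66.7 and 68.6 times the threshold.

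The 250 bases before the transcription start were looked up for the members, to show the regulatory sequence of genes called above background. The RefSeq table of promoters (GRCm38.p6) held P4ha1, P4ha2, Plod1, Serpinh1 and Pcolce. Sequences are printed for the 3 genes in which these 250 bases lie wholly outside the annotated gene. They read 5′ to 3′ on the strand of the gene, and capitals mark matches, on either strand, to ACGTG or GCGTG (forms of the core that hypoxia-inducible factor binds), GAANNTTC (a pair of inverted heat shock units) or TATAAA (the TATA box). The printed bases of P4ha2 lie at chr11:54100674-54100923 on the plus strand, those of Plod1 at chr4:147936777-147937026 on the minus strand and those of Serpinh1 at chr7:99353240-99353489 on the minus strand.
P4ha2: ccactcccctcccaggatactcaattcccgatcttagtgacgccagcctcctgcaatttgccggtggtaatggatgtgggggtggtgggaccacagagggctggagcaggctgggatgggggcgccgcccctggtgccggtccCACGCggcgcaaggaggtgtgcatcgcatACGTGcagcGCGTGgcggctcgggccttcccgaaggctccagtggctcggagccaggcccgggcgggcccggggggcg
Plod1: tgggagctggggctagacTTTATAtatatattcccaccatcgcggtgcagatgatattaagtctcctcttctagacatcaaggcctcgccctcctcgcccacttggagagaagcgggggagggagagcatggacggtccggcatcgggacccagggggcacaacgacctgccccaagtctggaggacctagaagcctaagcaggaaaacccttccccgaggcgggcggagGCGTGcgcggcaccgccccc
Serpinh1: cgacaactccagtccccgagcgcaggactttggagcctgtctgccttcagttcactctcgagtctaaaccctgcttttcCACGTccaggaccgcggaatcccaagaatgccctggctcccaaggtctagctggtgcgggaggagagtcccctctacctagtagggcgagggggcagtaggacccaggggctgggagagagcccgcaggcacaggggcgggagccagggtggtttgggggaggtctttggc

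P4ha2 held 1 ACGTG and 2 GCGTG matches in these 250 bases, Plod1 held 1 GCGTG and 1 TATAAA match, and Serpinh1 held 1 ACGTG match. GAANNTTC was found in 0 of the 5 member windows, and in 6.69% of all 32851 windows in the table. ACGTG or GCGTG was found in 5 of the 5 member windows, and in 38.6% of all windows. The member windows had GC contents of 58.8% to 70.0%, against a median of 52.4% for all windows, and 60.7% of the 7315 windows within that GC range held either form. The motifs were chosen after the sequences had been seen, a match is a description of letters, and the arrays hold no measurement of binding or of oxygen supply.

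Bmp1 encodes the procollagen C-proteinase, which removes the C-terminal propeptides of fibrillar procollagens and also processes other matrix proteins, among them the dentin proteins Dmp1 and Dspp and the lysyl oxidase precursor. Its 3 probe sets gave 3 different readings. The brightest had 5822, 7284, 6984 and 7070, with array 1 lowest, and a mean of 6790 ± 658 (SD, n = 4 arrays), 5.72 times the threshold. The next, whose suffix marks sequence shared by transcripts of the same gene, had 2555, 2356, 2278 and 2376, a mean of 2391 ± 117 (SD, n = 4 arrays). At 2.02 times the threshold this was the lowest of the 15 probe sets that passed, with an adjusted p of 1.36e-05 in limma. The remaining Bmp1 probe set had 293, 276, 158 and 154 and passed on 0 arrays.

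Pcolce encodes the procollagen C-proteinase enhancer, a secreted glycoprotein that binds the propeptide and speeds its removal by Bmp1. Its first probe set had 83835, 87799, 84242 and 83774, and its second 56070, 55899, 60088 and 61804. The first varied by 1.05-fold between arrays, the smallest range of the 15 probe sets that passed, and the second by 1.11-fold. The means were 84913 ± 1935 and 58465 ± 2950 (SD, n = 4 arrays), 71.8 and 49.4 times the threshold, and both probe sets carry the suffix for transcripts of the same gene.

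Lox encodes lysyl oxidase, the copper-dependent enzyme that starts the crosslinking of collagen and elastin. Of its 3 probe sets 2 passed on every array. The first had 36155, 45285, 39643 and 46357, and the second 27192, 27017, 30403 and 40347. Array 4 was highest on both, by little over array 2 on the first and by 1.49-fold over the lowest array on the second. The means were 41860 ± 4810 and 31240 ± 6268 (SD, n = 4 arrays), 35.2 and 26.1 times the threshold. The third Lox probe set had 577, 357, 346 and 923 and passed on 0 arrays.

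Loxl1 encodes a lysyl oxidase relative known for its part in elastic fibres. Its first probe set had 5675, 5797, 5613 and 6467, a mean of 5888 ± 393 (SD, n = 4 arrays) and 4.97 times the threshold, with array 4 highest. Its second probe set had 231, 82.3, 163 and 111 and passed on 0 arrays. Loxl2, a further relative that acts on basement membrane collagen, could not be read alone. The 2 probe sets it shares with Gm21451 had 9665, 10735, 8679 and 9759 for the first and 2208, 1717, 1654 and 1470 for the second, and both passed on every array. Which of the 2 genes gave these signals was not tested.

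The 4 probe sets that did not pass thus belonged to Plod1, Bmp1, Lox and Loxl1, each of which had another that did. Of the 8 members with more than 1 probe set, 4 had such a mixture of calls. Among all 6152 genes with several probe sets and at least 1 above background, 4351 (70.7%) had one. The 4 failing probe sets had signals between 82.3 and 923, limma adjusted p-values of 1, and SDs of log2 signal from 0.50 to 0.67. When a gene was instead judged by the median of its probe sets, 7 of 9 members passed and Plod1 and Loxl1 did not, against 39.1% of all genes.

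The rest of the pathway was read from 39 further genes listed by role, of which 35 had a probe set naming that gene alone here. Of these, 28 were above background (80.0%, against 51.5% of all genes), and the counts by role were uneven. Prolyl hydroxylation had 7 of 8 genes above background, lysyl hydroxylation and glycosylation 3 of 4, chaperones and export 11 of 11, propeptide cleavage 1 of 6, and crosslinking with its cofactors 6 of 6. Fkbp10, Adamts2, Adamts14 and Efemp2 were not analysed here, because no probe set named them alone.

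**Figure D2:**
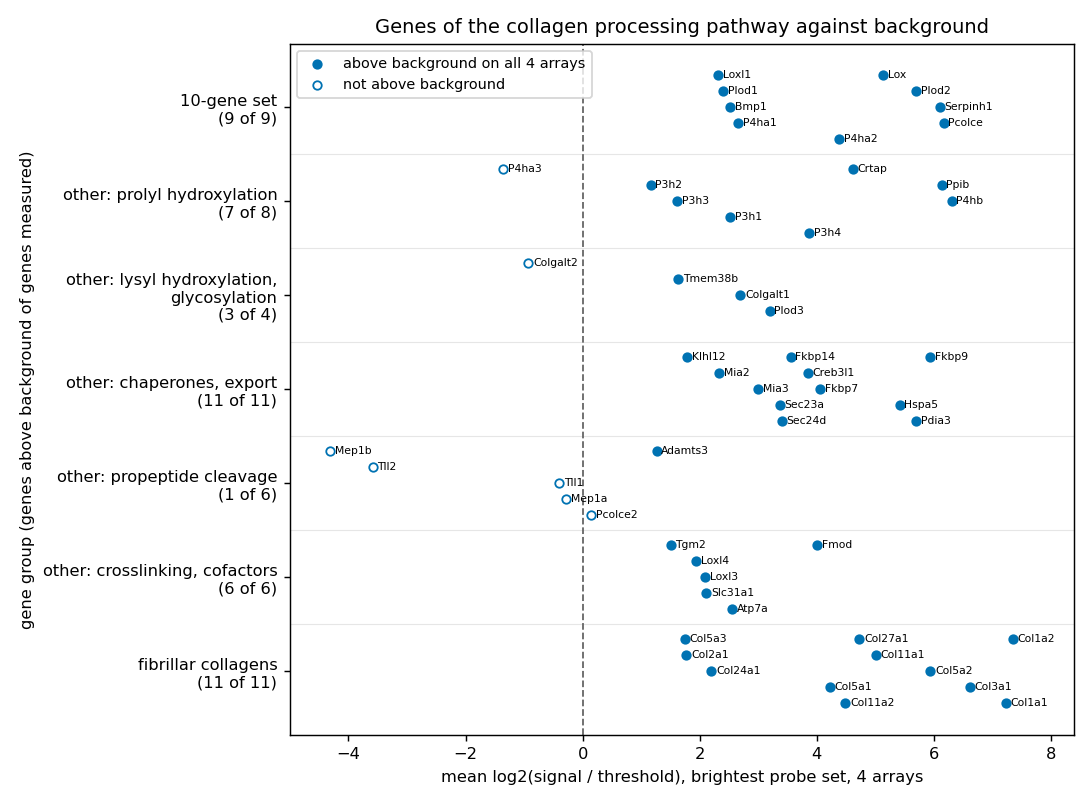
Each point is 1 gene, placed by the mean over 4 arrays of log2(signal / threshold) for its brightest probe set, with the 10-gene set in the top row, the other pathway genes by role below it and the fibrillar collagens at the bottom. Filled points were above background on all 4 arrays, open points were not, and the dashed line is the threshold. All 9 members and all 11 fibrillar collagens are filled, while 5 of the 6 propeptide cleavage genes are open.

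The gene for the partner of the prolyl 4-hydroxylase catalytic subunits was above background. P4hb, the protein disulfide isomerase that forms the second subunit of the enzyme, had signals of 86215, 95951, 92862 and 99341, and the lowest ratio to the threshold of its array was 71.4. The complex that 3-hydroxylates single prolyl residues of collagen was above background in full. Means were 6827 ± 715 for the enzyme gene P3h1, 28988 ± 1508 for Crtap and 83388 ± 8953 for the cyclophilin gene Ppib (SD, n = 4 arrays). For P3h1 and for Ppib the mean is that of the brighter of 2 probe sets, and the dimmer also passed on every array. P4ha3, the other catalytic subunit gene of prolyl 4-hydroxylase, had 546, 452, 430 and 424 and passed on 0 arrays. Both P4ha1 and P4ha2 thus passed on all 4 arrays and P4ha3 on none of them, each judged against the threshold alone.

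On the lysyl side, Plod3, a lysyl hydroxylase that also transfers glucose to collagen, had a mean of 10906 ± 1653, and Colgalt1, a collagen galactosyltransferase, had 7658 ± 311 (SD, n = 4 arrays) on its brighter probe set. The dimmer Colgalt1 probe set passed on all 4 arrays at 1.30 times the threshold, with an adjusted p of 0.0782 in limma. Colgalt2, the second galactosyltransferase gene, had 1036, 689, 567 and 369 and passed on 0 arrays. Array 1 gave the highest Colgalt2 signal, 1036, just under its threshold of 1037. Among chaperones and export genes, Creb3l1, a transcription factor that raises type I collagen output in bone, had 17061 ± 1527, and Fkbp14, a prolyl isomerase of the endoplasmic reticulum, had 13870 ± 794 (SD, n = 4 arrays) on its brighter probe set. The dimmer Fkbp14 probe set had 131, 332, 568 and 385 and passed on 0 arrays.

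Propeptide cleavage had the smallest share of genes above background among the roles. Adamts3, a procollagen N-proteinase, passed on 1 of its 2 probe sets, with 3267, 2946, 3298 and 2037. Its other probe set had 430, 288, 404 and 492 and passed on 0 arrays. The meprin genes Mep1a, on the brighter of its 2 probe sets, and Mep1b had means of 1085 ± 613 and 61.6 ± 19.1 (SD, n = 4 arrays) and passed on 1 and 0 arrays. The relatives of the 2 C-propeptide members were named after their values had been seen. Tll1 and Tll2, the tolloid-like relatives of Bmp1, had 898 ± 90.9 and 119 ± 94.4 (SD, n = 4 arrays) and passed on 0 arrays each. Pcolce2, the second enhancer gene, had 1047, 1318, 1277 and 1641, passed on 3 arrays, and had an adjusted p of 0.573 in limma. A signal that does not pass does not show that the transcript was absent.

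Among crosslinking genes outside the 10, Loxl3 had 4270, 5395, 5007 and 5663, and Loxl4, on the brighter of its 2 probe sets, had 4714, 4792, 4706 and 3940. Both passed on every array, so each of the 4 lysyl oxidase genes that could be read alone (Lox, Loxl1, Loxl3 and Loxl4) was above background. The same rule called 51.5% of all genes. Lox was called on 2 of its 3 probe sets and Loxl1 on 1 of its 2, and by the median over its probe sets Loxl1 did not pass. Atp7a, the copper pump that loads lysyl oxidase in the secretory pathway, had a mean of 6937 ± 591 (SD, n = 4 arrays) on the brighter of its 2 probe sets. Fmod, for fibromodulin, a proteoglycan that binds collagen fibrils, had 19089 ± 1637 (SD, n = 4 arrays) on the brightest of its 6. Their other probe sets also passed on every array, the dimmest at 1.57 times the threshold for Atp7a and 2.30 times for Fmod.

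The substrates of these enzymes were above background as a group. All 11 fibrillar collagen genes passed, against 51.5% of all genes, and their brightest probe sets had a median log2(signal / threshold) of 4.73, beside 0.48 for all genes. On their brightest probe sets Col1a1, Col1a2 and Col3a1 lay 150-fold, 164-fold and 97.7-fold over the threshold. Their dimmest probe sets lay at 29.2, 0.338 and 14.4 times the threshold, that of Col1a2 passing on 0 arrays. By the median over a gene's probe sets 10 of 11 fibrillar collagens passed, against 39.1% of all genes. The lists overlap in no gene, and no test was made between them.

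The cell types in the pool bear on how the enzyme signals can be read. All 8 marker genes of ameloblasts and odontoblasts passed, against 51.5% of all genes, among them Amelx and Dspp, so the labelled tissue carried its defining markers. Markers of follicle and ligament passed for 5 of 6 genes, Scx being the exception. Measured markers of bone and cementum passed for 3 of 5 (60.0%), a share close to that of all genes. The 3 were Ibsp, Dmp1 and Phex, which odontoblasts also express, while Mepe and Sost did not pass, so these lists do not separate such cells from odontoblasts and pulp. Cartilage markers passed for 0 of 6 genes by the all-array rule, though the brightest probe sets of Col9a1 and Acan passed on 2 arrays each. Col2a1, a cartilage collagen gene listed here with the fibrillar collagens, passed on all 4 arrays with 4245, 4609, 4828 and 2790. Skeletal muscle markers passed for 5 of 6, endothelial markers for 5 of 5, oral and cornified epithelium markers for 3 of 5 and osteoclast markers for 3 of 6, the last 2 being near the share of all genes. Of the 5 muscle genes, Myh3 lay near the threshold, at 1.23 times its value, with an adjusted p of 0.153 in limma. The part of each cell type in the enzyme signals was not tested, since all arrays carry the same pool.

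Repeat readings of the enzymes were close. Among the 15 probe sets above background the SD of log2 signal over the 4 arrays ran from 0.03 to 0.27 with a median of 0.09, against a median of 0.17 for all probe sets above background. Compared with the 500 probe sets nearest in brightness, 12 of the 15 had an SD under the neighbours' median. The other 3 were the first Plod1 probe set, at 0.16 beside 0.15 for its neighbours, and both Lox probe sets, at 0.17 beside 0.12 and at 0.27 beside 0.12. The highest and lowest arrays differed by less than 1.5-fold for each of the 15.

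**Figure D3:**
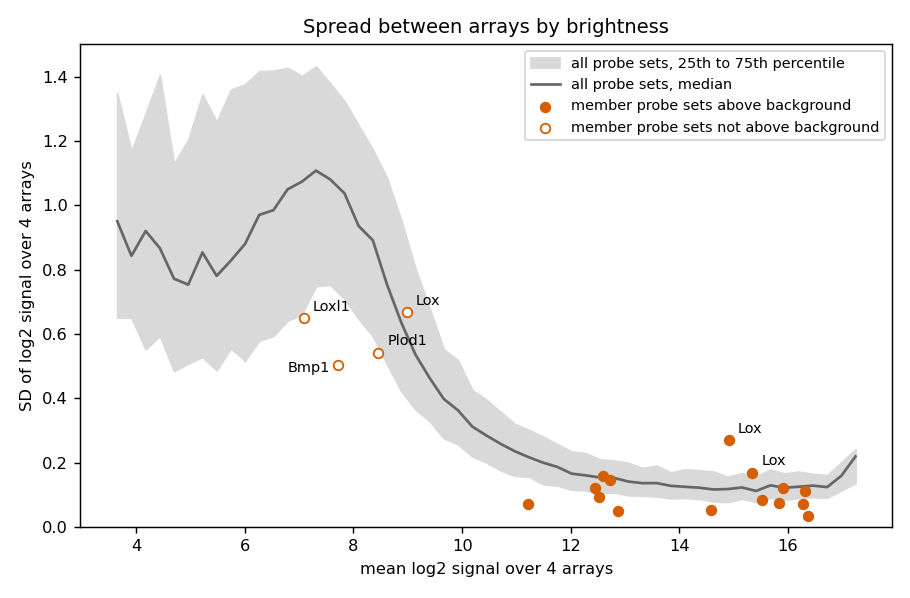
The horizontal axis is the mean log2 signal of a probe set and the vertical axis the SD of its log2 signal over the 4 arrays. The line and band give the median and the 25th to 75th percentiles of all probe sets in bins of brightness, filled points are the 15 member probe sets above background and open points the 4 that were not. The Lox point at 0.27 lies above the band, and the 4 open points lie at SDs of 0.50 to 0.67.

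The enzyme probe sets were also compared by array. The median deviation of the 15 probe sets from their 4-array means was -0.05, -0.02, -0.01 and 0.06 on the log2 scale for arrays 1 to 4, and that of all probe sets above background was 0.01, -0.01, -0.01 and 0.01. Array 4 gave the highest signal for 7 of the 15, and it was highest for 32.4% of all probe sets above background. It gave the lowest for 4 of the 15, and the share of all probe sets that were lowest there was not counted. After quantile normalisation the median deviations of the 15 were -0.02, -0.01, 0.01 and 0.01 for arrays 1 to 4, so the sign turned on array 3 and the value shrank on arrays 1 and 4. These medians were not tested. The second Lox probe set stood 0.39 above its mean on array 4, the largest deviation of the 15.

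**Figure D4:**
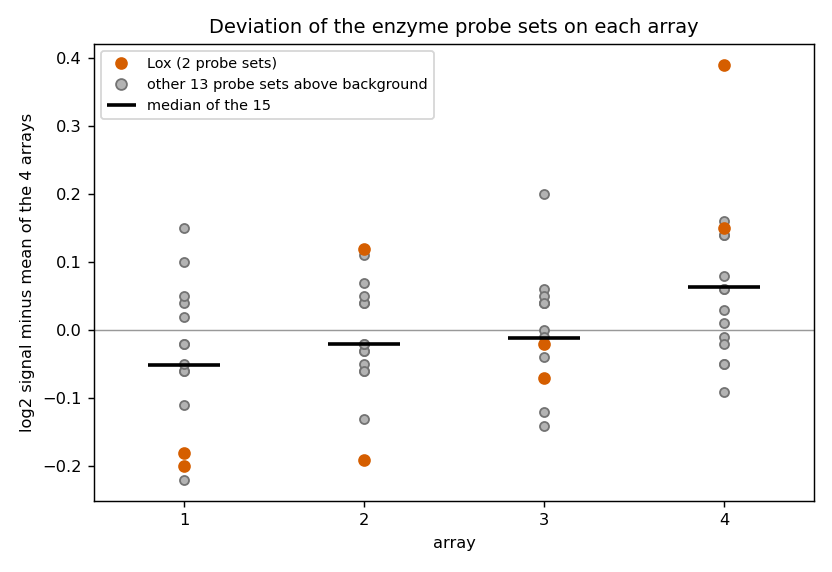
For each array the points give the log2 signal of the 15 member probe sets above background minus their mean over the 4 arrays, the black bars are the medians, and the 2 Lox probe sets are drawn in orange. The medians run from -0.05 on array 1 to 0.06 on array 4, and the highest point is a Lox probe set at 0.39 on array 4.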

How the data were processed

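The values deposited are signal intensities on a linear scale, 1 for each probe set on each array, and the authors used MAS5 per the submitters' processing notes. The MAS5 version and settings were not given in the sources used, nor were detection calls. When the lowest and highest 2% of intensity values were left out, the mean was 2500 on every array, which shows scaling to 1 target value. The mismatch correction in MAS5 adds noise at low signals. Depth does not apply to arrays, whose number, 4, limits the precision. The labels do not say that the arrays come from separate RNA extracts, so p-values measure technical spread only.

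Gene symbols came from the annotation of the array platform. Of 45101, 34958 carried 1 gene symbol, 932 carried several and were not counted, and 64 were controls and were left out. Gene IDs of the 9 measured members matched the RefSeq table (GRCm38.p6), and the probe set annotated Ctage5 was counted under Mia2. Gene coordinates are not given, except for promoters, which come from RefSeq (GRCm38.p6).

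The threshold, the all-array call and limma 3.58.1 in R 4.3.3 (intercept only, eBayes with trend, one-sided, adjusted p under 0.05) were applied to all 45037 other probe sets and run on simulated data. Python 3.11.15 did the rest. The simulated background was drawn from the receptor probe sets that set the threshold. Few calls there were therefore fixed in advance, and the simulation cannot show how many calls are false in the real data. The members, lists, thresholds and alternatives were chosen with earlier results of these data known. All 10 members were named. Other pathway genes were named by role in alphabetical order (the first 2 above and the first 2 not above background), with P4hb, Plod3, P3h1, Crtap, Ppib, Fkbp10, Adamts2, Loxl3 and Loxl4 always named, and Tll1, Tll2 and Pcolce2 were added after their values were seen. Genes were not named by likeness of pattern, because 4 arrays of 1 pool are not independent samples. Alternatives were the 99th and 75th percentile as threshold, a call on at least 3 arrays, the limma call, quantile normalisation, probe sets without the suffixes _s_at, _x_at and _a_at, the median over a gene's probe sets, and the omission of each array.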

Additional observations from a re-analysis of the deposited data

Results flagged for a closer look

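The probe sets shared by Loxl2 and Gm21451 were outside the member counts and were above background on all 4 arrays, with mean signals of 9709 ± 840 and 1763 ± 315 (SD, n = 4 arrays). In 22 sets of 4 array values, a gap test marked 1 in which an array lay apart from the other 3, and chance marks about 1 in 20. It was the first Pcolce probe set, with a log2 signal of 16.42 on array 2 against 16.35 to 16.36 on the others, a gap of 0.881 of the whole range. The range itself was the smallest among the members above background, 1.05-fold.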

How the results depend on the processing

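The counts of members and lists above background stayed within 1.5 times the reported value in all 43 recomputations. This tolerance is wide, because all 9 member genes and all 11 fibrillar collagens were called at the start, so their counts could only fall. The raw counts also depend on how many probe sets a setting keeps. Under the 99th and 75th percentile thresholds, the call on 3 arrays, the limma call, quantile normalisation and without each array in turn, 15 member probe sets and 9 member genes passed each time. The pathway count ran from 28 to 31 of 35 genes under these. The 31 belong to the 75th percentile threshold, which 64.8% of all genes and 49.7% of all probe sets passed, and at the 99th percentile 47.1% and 31.6% did. When probe sets with a shared-sequence suffix were dropped, the counts were 10 of 14 member probe sets and 7 of 7 member genes, since all probe sets of Serpinh1 and Pcolce carry a suffix, and 25 of 32 pathway genes, against 30.1% of probe sets and 46.5% of genes overall. By the median over a gene's probe sets they were 7 of 9 members and 25 of 35 pathway genes, against 39.1% of all genes, and Plod1 and Loxl1 were then not called. The 63 recomputed values of single members kept their side of the threshold. Quantile normalisation moved the median deviation of the members to 0.01 on array 4, to -0.02 on array 1 and, with a change of sign, to 0.01 on array 3 (log2 scale). No paired analysis was possible because the study has 1 group. Signals near the threshold, such as those of Pcolce2 and that of Colgalt2 on array 1, are limited by noise at low brightness.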

Other observations

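The second Lox probe set and the dimmer Col1a1 probe set were both highest on array 4, at 40347 and 53013. On arrays 1 to 3 Lox had 27192, 27017 and 30403 on that probe set and Col1a1 had 26893, 27491 and 36229 on its own. The brighter Col1a1 probe set had 142675, 187189, 167789 and 221490 on arrays 1 to 4, and the first Lox probe set had 36155, 45285, 39643 and 46357, so on these array 1 was lowest and array 4 highest for both genes. The same held for some other bright probe sets, such as those of Amelx (149117, 217581, 181018 and 246949) and Dspp (89370, 120580, 101010 and 134525). It is therefore not particular to this pair. It did not hold for all bright probe sets, since array 4 was lowest on the first of Serpinh1 (74126) and the first of Pcolce (83774). The pair was picked after the values had been seen, all arrays carry the same pool, and no correlation is given over 4 arrays.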
